A study of Mus musculus with 6 samples.

Results

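This report concerns 10 genes of the basement membrane: the laminin chains Lama1, Lama2, Lama4, Lama5, Lamb1 and Lamc1, the nidogens Nid1 and Nid2, and the proteoglycans Hspg2 (perlecan) and Agrn (agrin). They were chosen by name, with earlier results of these data known. All 10 were found among the 24568 gene symbols of the matrix, with counts in every set of cells described here. A basement membrane is the thin sheet of matrix on which an epithelium sits. Its laminins are trimers of 1 alpha, 1 beta and 1 gamma chain that assemble into a network at the cell surface. Nidogens and perlecan tie that network to collagen IV, and agrin links laminin to receptors. In the intestine the sheet lies between the epithelium and the mesenchyme beneath it, and mesenchymal cells make a share of its components.

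Small intestine was taken from fetal mice of the strain C57/BL6 that carry Pdgfra-H2BGFP, a nuclear fluorescent reporter of Pdgfra, the receptor that is high in mesenchymal cells next to the epithelium. All 6 samples carry the reporter, so none is without it. Cells were marked with lipid-bound barcodes (MULTI-seq), pooled over animals and gut segments, and captured for sequencing of transcript 3′ ends. Of the 6 samples, 2 hold all live cells of E15.5 and E16.5 and 1 holds enriched cells of the same ages. A further 2 hold all live cells of E13.5, E14.5 and E18.5, and 1 holds enriched cells of those ages. Enrichment was for PdgfraHigh, Epcam+, CD31+ or CD45+ cells, so an enriched sample is a mixture of sorted cells. The design names 4, 3, 2, 2 and 2 pooled replicates at E13.5, E14.5, E15.5, E16.5 and E18.5.

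All samples share 1 count matrix, and its 13127 cell barcodes end in 1 of 6 suffixes. No label ties a suffix to a sample, so no age or sort is given to any suffix here, and the whole matrix counts as 1 sample without replicates. The suffixes were used as technical sets: A1, A2 and A3 share 1 ending, and B1, B2 and B3 share the other. The third set of each ending was set against the other 2 of that ending. Endings were kept apart because their gene lists differ. Intervals are exact 95% intervals that cover counting error only, and no p-value is given. Levels are UMIs (unique transcript molecules) of a gene scaled to a fixed total per set, known as CPM. Capture differs between genes, so levels are compared between cells, not between genes.

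After filtering, 12618 cells were kept, from 1175 in set A3 to 2509 in set B2. The median cell held 12120, 13580 and 7045 UMIs in sets A1, A2 and A3, and 4180, 4116 and 3549 in sets B1, B2 and B3. Pdgfra stood at 173, 129 and 940.0 CPM in A1, A2 and A3, and at 105, 113 and 405 CPM in B1, B2 and B3. Between any 2 sets, 22 cell barcodes were shared in all. The defining epithelial, endothelial and blood markers were above 0 in all 6 sets. The summed level of 9 epithelial markers was 55.8, 53.6 and 391 CPM in A1 to A3 and 43.7, 44.0 and 119 CPM in B1 to B3. Few cells held many such UMIs: 15 cells held 10 or more epithelial marker UMIs and 8 cells of ending B held 10 or more blood marker UMIs. With 3 or more epithelial marker UMIs there were 662 of the 1175 cells of A3, so the number depends on the cutoff.

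Laminin alpha chains decide which receptors a laminin trimer binds, and the 4 alpha chains among the members did not move together. Lama5 encodes alpha-5, the chain of laminin-511 and laminin-521, and Lama4 encodes alpha-4, a shorter chain of vessels and mesenchyme. Lama2 encodes alpha-2, known from muscle and nerve, and Lama1 encodes alpha-1, the chain of the earliest embryonic basement membranes. Lama5 was higher and Lama2 lower in the third set of both endings. Upstream sequence was in the supplied RefSeq promoter table (GRCm38.p6, the assembly of the authors' mm10) for 6 of the 10 members. Those of Lama5, Lamb1 and Nid1, which were higher together, are shown beside that of Lama2, which was lower. Each is the 250 bases before the annotated start, read 5′ to 3′ on the gene's strand. Capitals mark GC boxes, GGGCGG on either strand (CCGCCC when reversed), the motif of SP1-type factors. Lama5 lies on the minus strand at chr2:180225860-180226109, Lamb1 on the plus strand at chr12:31265043-31265292, Nid1 on the plus strand at chr13:13437352-13437601 and Lama2 on the minus strand at chr10:27616943-27617192.
Lama5: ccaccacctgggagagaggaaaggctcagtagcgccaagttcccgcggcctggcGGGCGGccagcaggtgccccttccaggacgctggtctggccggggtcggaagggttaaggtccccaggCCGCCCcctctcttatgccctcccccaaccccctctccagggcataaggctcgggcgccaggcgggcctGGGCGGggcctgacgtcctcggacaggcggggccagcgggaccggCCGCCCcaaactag
Lamb1: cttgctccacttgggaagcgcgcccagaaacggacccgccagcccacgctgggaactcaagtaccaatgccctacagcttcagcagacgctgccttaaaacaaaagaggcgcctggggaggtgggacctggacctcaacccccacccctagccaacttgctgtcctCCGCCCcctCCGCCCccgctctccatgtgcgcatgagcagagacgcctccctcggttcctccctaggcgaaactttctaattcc
Nid1: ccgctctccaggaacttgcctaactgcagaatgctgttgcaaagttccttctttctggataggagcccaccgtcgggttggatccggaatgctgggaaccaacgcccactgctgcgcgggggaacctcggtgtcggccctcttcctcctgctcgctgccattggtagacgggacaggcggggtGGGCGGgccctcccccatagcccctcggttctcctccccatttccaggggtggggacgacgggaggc
Lama2: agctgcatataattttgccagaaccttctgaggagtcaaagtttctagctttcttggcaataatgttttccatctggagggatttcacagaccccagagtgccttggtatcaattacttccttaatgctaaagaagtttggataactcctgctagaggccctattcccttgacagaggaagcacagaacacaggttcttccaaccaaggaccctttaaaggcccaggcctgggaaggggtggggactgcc
The windows held 4 GC boxes for Lama5, 2 for Lamb1, 1 for Nid1 and 0 for Lama2. Hspg2 and Agrn, which were within 2-fold in the third sets, also had windows in the table, not printed here, with 5 GC boxes for Hspg2 and 2 and 12 for the 2 windows of Agrn. Of all windows, 32.7% of 32851 of this length held at least 1. The GC content was 72.4%, 62.0%, 64.4% and 47.2% in the windows printed, 70.0% for Hspg2 and 60.8% and 83.6% for Agrn, against a median of 52.4% over all windows. The TATA box TATAAA, the Gli core GACCACCC and the Fox core TGTTTA, each searched on both strands, were in none of the member windows. They were in 12.4%, 0.703% and 12.0% of all windows. These matches describe letters and were not tested as binding sites. No window was matched for Lama1, Lama4, Lamc1 and Nid2.

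Lama5 stood at 8.62 CPM (7.61 to 9.72) in set A1, 7.03 CPM (6.09 to 8.07) in A2 and 196 CPM (188 to 206) in A3. In the other ending it stood at 23.0 CPM (20.1 to 26.2) in B1, 25.2 CPM (22.4 to 28.4) in B2 and 169.6 CPM (161 to 179) in B3. Sets A3 and B3 were therefore far above the other sets of their ending, and the 4 other sets differed between endings. The ratio of A3 to A1 and A2 together was 4.65 on the log2 scale (4.50 to 4.79), or 25.0-fold. The ratio of B3 to B1 and B2 was 2.81 (2.66 to 2.96), or 7.01-fold. A1 over A2 was 0.29 (0.03 to 0.57) and B1 over B2 was -0.13 (-0.39 to 0.12).

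Lama4 was higher in the same sets by a smaller ratio. It stood at 97.5, 88.9 and 295 CPM in A1, A2 and A3, and at 81.7, 86.2 and 174 CPM in B1, B2 and B3. The third set was above the others by 1.66 (1.59 to 1.73) in ending A and 1.05 (0.95 to 1.15) in ending B on the log2 scale.

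Lama2 went the other way. It stood at 30.6 CPM (28.7 to 32.6) in A1, 28.7 CPM (26.7 to 30.7) in A2 and 9.50 CPM (7.62 to 11.7) in A3. In ending B it stood at 8.46 CPM (6.76 to 10.5) in B1, 10.2 CPM (8.42 to 12.3) in B2 and 1.84 CPM (1.03 to 3.03) in B3. The third set was the lowest of its ending both times, with log2 ratios of -1.64 (-1.97 to -1.33) in A and -2.35 (-3.22 to -1.60) in B.

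Lama1 was counted rarely, with 12 to 131 UMIs in a set, and its ratios took opposite signs. It was at 4.24, 3.34 and 8.31 CPM in A1, A2 and A3, and at 2.69, 3.13 and 1.47 CPM in B1, B2 and B3. The log2 ratio was 1.13 (0.73 to 1.51) in ending A and -0.99 (-2.02 to -0.09) in ending B.

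**Figure D1:**
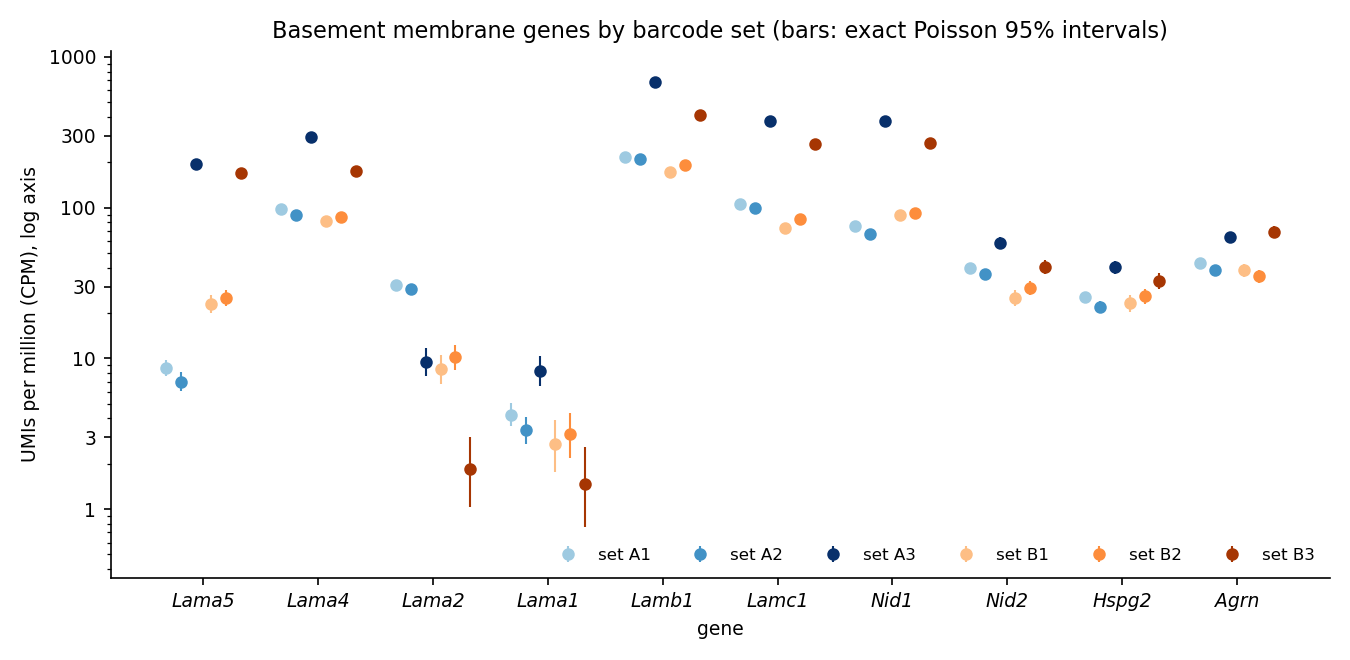
Level of each of the 10 genes in the 6 barcode sets, in CPM on a log axis; points are the 6 sets and vertical bars the exact Poisson 95% intervals. Sets A3 and B3 lie above the other sets of their ending for every gene but Lama2 (both endings) and Lama1 (ending B), and Lama5 spans the widest range, from 7.03 CPM in A2 to 196 CPM in A3.

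The beta and gamma chains and the nidogens were higher in the third set of both endings. Lamb1, the beta-1 chain of many laminins, stood at 217, 211 and 683 CPM in A1, A2 and A3 and at 174, 192 and 409 CPM in B1, B2 and B3. Lamc1 encodes gamma-1, the chain shared by most laminin trimers, and stood at 106, 99.1 and 378 CPM in A1 to A3 and 73.2, 84.7 and 264 CPM in B1 to B3. For both genes the third set was above either of the others with no overlap of intervals. The log2 ratios were 1.68 (1.63 to 1.72) and 1.16 (1.09 to 1.23) for Lamb1 in endings A and B. For Lamc1 they were 1.88 (1.82 to 1.94) and 1.74 (1.65 to 1.83).

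Nid1 encodes nidogen-1, which binds the gamma-1 chain and collagen IV. It stood at 76.1, 67.1 and 377 CPM in A1 to A3 and at 89.1, 92.4 and 271 CPM in B1 to B3. After Lama5 it had the highest ratio in ending A, at 2.39 (2.33 to 2.46), and in ending B it came after Lama5 and Lamc1, at 1.58 (1.49 to 1.66). Nid2, its paralog, stood at 39.6, 36.2 and 58.6 CPM in A1 to A3 and at 25.2, 29.3 and 40.4 CPM in B1 to B3. Its log2 ratios, 0.63 (0.49 to 0.76) and 0.56 (0.36 to 0.76), were smaller than those of Nid1 in both endings.

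The heparan sulfate proteoglycans had small ratios. Hspg2 stood at 25.5, 22.1 and 40.2 CPM in A1 to A3 and at 23.3, 25.9 and 32.5 CPM in B1 to B3. Agrn stood at 43.1, 38.3 and 63.5 CPM in A1 to A3 and at 38.4, 35.2 and 69.5 CPM in B1 to B3. The third sets were again highest for both genes. The log2 ratios for Hspg2 were 0.75 (0.58 to 0.92) and 0.40 (0.18 to 0.61), and those for Agrn were 0.64 (0.50 to 0.77) and 0.92 (0.76 to 1.08).

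A gene was counted as higher or lower when its ratio was at least 2-fold and its level was at least 20 CPM on either side. In ending A, 9 of the 10 members reached that level: Lama5, Nid1, Lamc1, Lamb1 and Lama4 were higher, Lama2 was lower, and Nid2, Hspg2 and Agrn were within 2-fold. Of all 7416 genes at that level, 9.63% were higher and 5.68% lower. In ending B, 8 members reached it and the same 5 were higher, with none lower, where 8.58% of 6407 genes were higher and 5.42% lower. The median log2 ratio of these members was 1.66 in ending A and 1.10 in ending B, against -0.05 and 0.12 over all genes. Lama2 in ending B and Lama1 in both endings were below the level, so their ratios were not counted.

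Levels of other lineages and of cycling cells also moved with the third sets. Beside the epithelial markers above, 5 enterocyte genes summed to 492, 472 and 2331 CPM in A1, A2 and A3 and to 35.2, 31.9 and 55.6 CPM in B1, B2 and B3. Endothelial markers summed to 25.7 to 27.8 CPM in A1 and A2 and 83.8 in A3, and to 32.0 to 34.5 CPM in B1 and B2 and 73.3 in B3. In set A3, 662 of 1175 cells held 3 or more epithelial marker UMIs. Cells that held 3 or more marker UMIs of epithelium, endothelium, blood lineage or enteric glia were then removed as cells of other lineages. Without them, the log2 ratio of Lama5 was 4.75 in ending A and 2.81 in ending B. Cells were not removed for enterocyte, pericyte, enteric neuron, smooth muscle or red cell RNA. Mki67 and Top2a, genes of dividing cells, summed to 1001, 926 and 525 CPM in A1 to A3 and 879, 809.6 and 221 CPM in B1 to B3. Without cells that held a UMI of either, the Lama5 ratio was 4.19 and 2.38. Blood lineage markers summed to 11.9, 14.4 and 91.0 CPM in A1 to A3 and to 36.0, 32.4 and 76.7 CPM in B1 to B3. The sum of pericyte markers was lower in the third sets, at 325, 322 and 177 CPM in A1 to A3 and 198, 196 and 126 CPM in B1 to B3. Of these markers Cspg4 went the other way, at 35.9, 33.6 and 90.1 CPM in A1 to A3 and 45.8, 43.0 and 75.7 CPM in B1 to B3. The sum of enteric neuron markers was also lower, at 30.1, 31.1 and 4.75 CPM and then 81.5, 82.8 and 1.23 CPM. The sum of smooth muscle markers was also lower, at 1890.05, 1955 and 932 CPM in A1 to A3 and 1480.2, 1514 and 588 CPM in B1 to B3. Of these markers Smtn went the other way, at 36.6, 29.5 and 57.6 CPM in A1 to A3 and 35.9, 34.9 and 48.1 CPM in B1 to B3. Des was higher in A3 (40.1, 41.0 and 70.1 CPM in A1 to A3) but not in B3. Mylk differed little, at 301, 322 and 319 CPM and then 316, 353 and 310 CPM. Red cell RNA reached 3781 CPM in B3 against 1863 and 1797 CPM in B1 and B2. Beyond the removals above, the part of these cells and of free RNA in the members' ratios was not tested.

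The share of cells with a UMI gave a like picture. With every cell thinned to 2000 UMIs, Lama5 was seen in 1.91%, 1.30% and 34.0% of cells in A1, A2 and A3 and in 5.10%, 5.68% and 29.1% in B1, B2 and B3. Without thinning the shares were 8.14%, 7.53% and 65.6% and then 8.59%, 9.37% and 43.9%. Thinning left out 2, 1 and 3 cells of A1 to A3 and 13, 10 and 12 cells of B1 to B3. Thinned shares of Lamb1 were 34.8%, 34.5% and 72.9% in A1 to A3 and 28.8%, 30.6% and 52.4% in B1 to B3. Those of Nid1 were 13.2%, 12.6% and 52.3%, and 16.5%, 16.2% and 40.1%. Lama2 was again the reverse, at 6.51%, 5.95% and 1.79% and then 1.87%, 2.12% and 0.231%. The thinned share in the third set was above both others for 9 of 10 members in ending A and 8 of 10 in ending B. How many of all genes met this rule was not computed, so these counts have no background. Without thinning, A3 was not highest for Nid2 (35.2%, 35.5% and 32.9% in A1 to A3), Hspg2 (26.5%, 25.5% and 26.0%) and Agrn (39.1%, 40.1% and 37.0%). In the 8 cells of ending B with 10 or more blood marker UMIs, whose median was 9022.5 UMIs, 12.5% held a Lama5 UMI without thinning. Those cells are too few to give the share that free RNA leaves in cells without the gene.

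**Figure D2:**
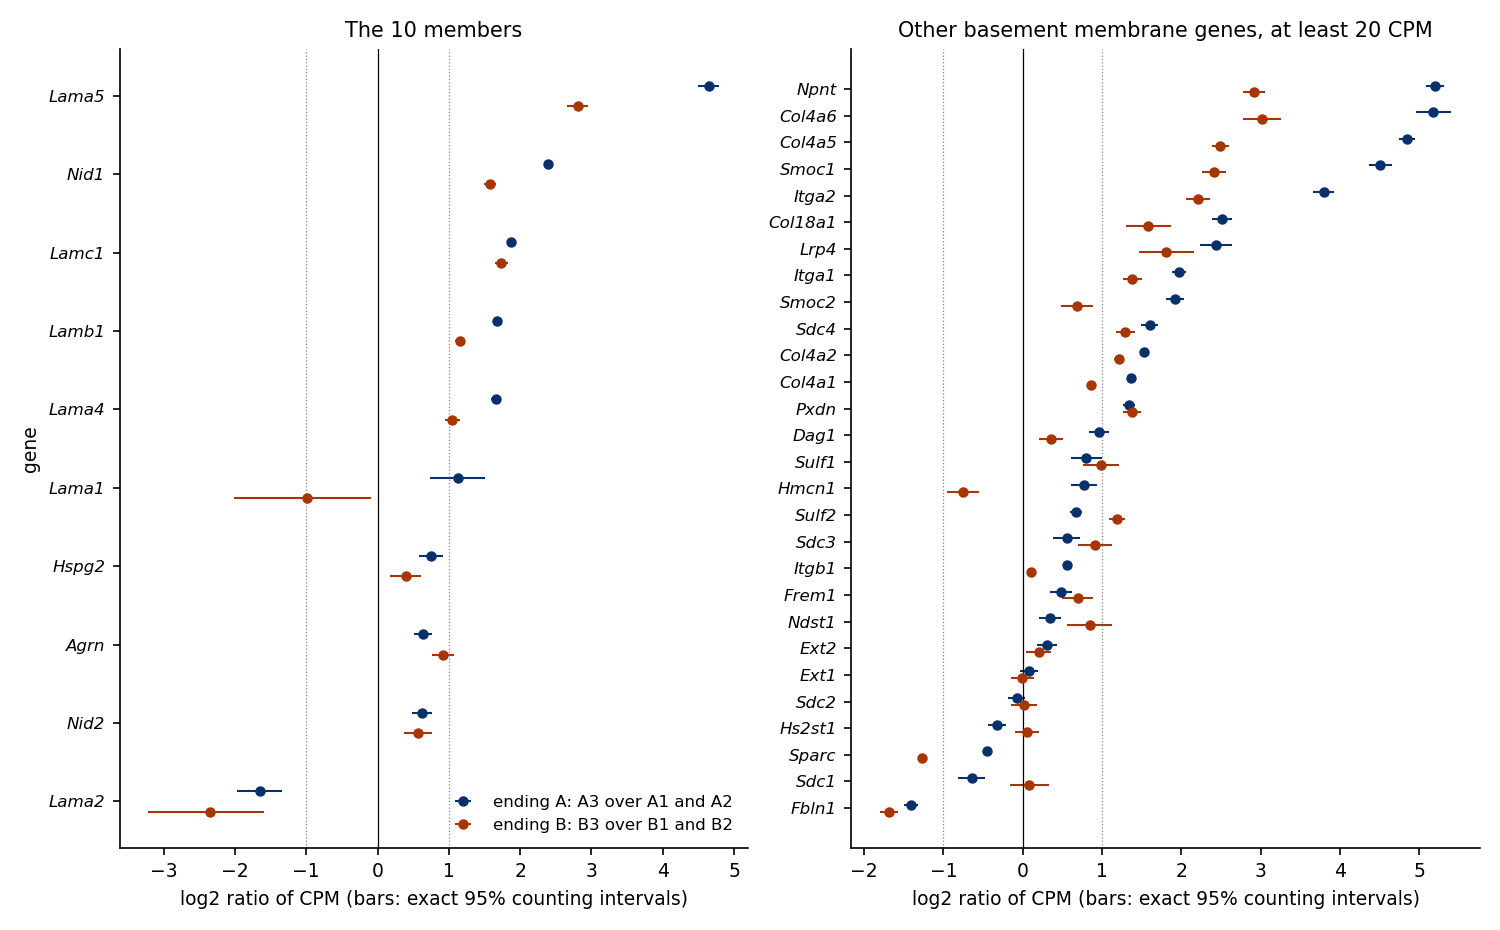
Log2 ratio of CPM in the third barcode set over the other 2 of its ending, with ending A in blue and ending B in brown; bars are exact 95% counting intervals and dotted lines mark 2-fold. The left panel has the 10 genes, from Lama5 (4.65 and 2.81) down to Lama2 (-1.64 and -2.35), and the right panel has other basement membrane genes, receptors and heparan sulfate enzymes of at least 20 CPM.

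The alpha chain UMIs of a set were next divided among the alpha chains, which removes the total level of laminin. Lama5 made up 6.10% (5.41 to 6.85) of alpha chain UMIs in A1, 5.48% (4.77 to 6.27) in A2 and 38.5% (37.1 to 39.9) in A3. In ending B it made up 19.8% (17.6 to 22.2) in B1, 20.2% (18.1 to 22.4) in B2 and 48.9% (47.0 to 50.7) in B3. The share of Lama5 was thus higher in the third set of each ending. Lama4 had a lower share there, at 69.0%, 69.4% and 57.9% in A1 to A3 and 70.5%, 69.1% and 50.2% in B1 to B3. Lama2 took 21.6%, 22.4% and 1.86% in A1 to A3 and 7.30%, 8.18% and 0.530% in B1 to B3.

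The other chain kinds were less divided. Lamb1 was 93.6% to 97.2% of beta chain UMIs and Lamc1 99.3% to 99.6% of gamma chain UMIs over the 6 sets. Nid1 was 65.8%, 65.0% and 86.5% of nidogen UMIs in A1 to A3 and 78.0%, 75.9% and 87.0% in B1 to B3. The ratio of alpha to gamma chain UMIs was between 1.29 and 1.58 in every set. Beta chain UMIs per gamma chain UMI were 2.15 and 2.24 in A1 and A2 and 1.85 in A3, and 2.52 and 2.40 in B1 and B2 and 1.63 in B3. In both endings the third set thus held fewer beta chain UMIs for each gamma chain UMI, in counts of RNA, not protein.

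Lama4 and Lama5 UMIs were also found in 1 and the same cell. After thinning to 2000 UMIs, 14.7% of cells in A3 held both (12.7 to 16.8), against 14.0% for the product of the separate shares. In B3 the share was 7.65%, against a product of 7.73%. Fewer cells held both in the other sets, but there the share was above the product. It was 0.651% (0.373 to 1.06) against 0.317% in A1, and 0.576% (0.298 to 1.00) against 0.218% in A2. In B1 and B2 the interval of the share included the product. Cells of A3 with Lama5 and no Lama4 were 19.3%, and those with Lama4 and no Lama5 were 26.6%. In B3 these shares were 21.4% and 18.9%. A cell with 1 chain seen may hold the other below detection at this depth.

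**Figure D3:**
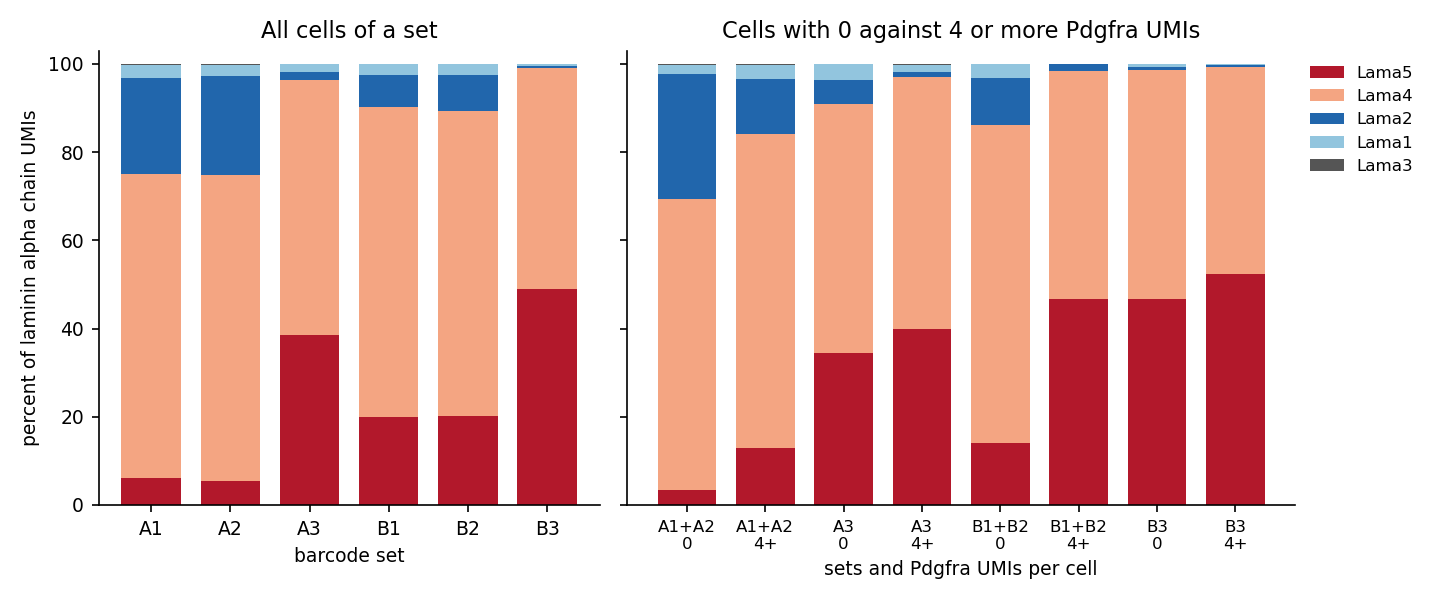
Share of each laminin alpha chain in the alpha chain UMIs, in percent, as stacked bars that sum to 100; the left panel has the 6 barcode sets and the right panel cells with 0 against 4 or more Pdgfra UMIs. Lama5 takes 6.10% of set A1 and 48.9% of set B3, while Lama2 takes 21.6% and 0.530%.

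Cells with 4 or more Pdgfra UMIs were then set against cells with 0. This was done within single sets, within A1 and A2 or B1 and B2 together, and within whole endings. No label says that a set is 1 capture. A1 and A2 together gave 803 cells against 1164, with a median of 14822 against 10690.5 UMIs. B1 and B2 together gave 71 cells against 3225, with a median of 3575 against 4211 UMIs. A Pdgfra count rises with depth, and the same number of UMIs stood for 379 CPM of Pdgfra in A1 and A2 but 1169 CPM in B1 and B2. The classes of both endings are therefore not alike.

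Lama5 took a greater share of alpha chain UMIs in the cells with 4 or more Pdgfra UMIs. In A1 it was 3.27% at 0 Pdgfra UMIs and 13.1% at 4 or more, and in A2 it was 3.28% and 12.3%. In B1 it was 12.9% and 45.9% (29.5 to 63.1), and in B2 14.9% and 48.0% (27.8 to 68.7), on few UMIs. In the third sets the classes were closer: 34.5% (22.2 to 48.6) and 39.8% in A3, and 46.7% and 52.4% in B3. In ending A, the 28 cells of A3 with no Pdgfra UMI thus had more Lama5 among alpha chain UMIs than cells of A1 and A2 with 4 or more. Their median was 6489.5 UMIs, against 14211.5 and 16019 in those cells of A1 and A2. In ending B, the share in B3 at 0 was near those of B1 and B2 at 4 or more. The median of B3 cells at 0 was 3503 UMIs, and a cell at 0 may hold Pdgfra below detection. Over whole endings the share was 4.06% and 31.6% in A, and 25.5% and 51.5% in B. Set A3 gave 921 of the cells with 4 or more and 28 of those with 0 in ending A, and without it the share at 4 or more was 12.8%.

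Lama2 again took the opposite course, with 28.4% of alpha chain UMIs at 0 Pdgfra UMIs and 12.5% at 4 or more in A1 and A2 together. In B1 and B2 it was 10.8% and 1.61%. Nid1 made up 61.3% and 73.0% of nidogen UMIs in A1 and A2, and 72.9% and 89.6% in B1 and B2.

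The levels of the members in these classes differed between endings. In A1 and A2 together, 0 of the 8 members of at least 20 CPM were higher by 2-fold, where 0.843% of all genes were, and Lama2 was lower, where 1.39% were. In B1 and B2 together, 5 of 8 were higher (Lama5, Nid1, Lamc1, Agrn and Lamb1), where 11.3% of all genes were. Hspg2 was lower there on 3 UMIs, where 8.27% of genes were lower. The median log2 ratio was 0.05 in A1 and A2 and 1.38 in B1 and B2, against 0.06 and 0.05 over all genes. Set by set, 0 members were higher in A1 and A2 (1.04% and 0.811% of all genes) and 2 in A3 (8.15%), where 28 cells held no Pdgfra UMI. In B1, B2 and B3 the counts were 6, 5 and 0, where 16.1%, 14.3% and 1.02% of all genes were higher.

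Lama5 was below 20 CPM on both sides in A1 and A2, and so was not counted, but its ratio was positive in every set. In A1 it stood at 19.4 CPM in cells with 4 or more Pdgfra UMIs and 5.62 CPM at 0, a log2 ratio of 1.78 (1.24 to 2.36), and in A2 the ratio was 1.73 (1.14 to 2.34). In B1 it was 128 against 12.3 CPM, a ratio of 3.38 (2.54 to 4.14), and in B2 77.7 against 15.4 CPM, a ratio of 2.34 (1.34 to 3.20). In A3 the ratio was 1.20 (0.55 to 1.93) and in B3 it was 0.25 (-0.03 to 0.52), an interval that includes 0. The classes also differ in the clusters they draw on. Within the 11 clusters that held at least 20 cells of both classes, compared after the data were seen, the interval of the Lama5 ratio was above 0 in 1 and below 0 in 1. It was 2.51 (0.61 to 5.57) in the Apela/Ube2c cluster and -0.93 (-2.02 to -0.01) in the Gadd45a/Ajap1 cluster. In the Elovl7/Ramp1 and Npnt/AW112010 clusters it was 0.19 (-0.24 to 0.60) and 0.25 (-0.16 to 0.66). The other clusters compared were of ending A and held 2.78 to 14.1 CPM Lama5, with wide intervals, so they could show little. The clusters of ending A highest in Pdgfra and Lama5 (Il1rl1/Npnt, Opcml/Cd38 and Aplnr/Bmp3) did not reach 20 cells of both classes. Of the other members, intervals were above 0 most often for Lamb1 (4 above, 0 below) and Nid1 (3 above, 1 below).

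Nid1, Lamb1 and Lamc1 had ratios of 0.07 to 0.24 in A1 and A2. In B1 they were 2.22, 1.50 and 1.45, and in B2 1.95, 1.08 and 2.15. In B3 Nid1 was at 0.50 (0.29 to 0.71). Lama2 had ratios of -1.41 (-1.71 to -1.11) in A1 and -1.36 in A2. In B2 the 38 cells with 4 or more Pdgfra UMIs held 0 Lama2 UMIs, which allows up to 19.4 CPM (3 counts), above the 12.2 CPM of the cells with 0. Nid2 was lower with Pdgfra in A1, at -0.61 (-0.86 to -0.37), and in A2, at -0.59. Cells were also thinned to 2000 UMIs before classes were formed, with 2 or more set against 0 Pdgfra UMIs. Those classes hold other cells than 4 or more against 0 without thinning. The ratio of Nid2 in A1 was then positive (0.23). Agrn in B2 stood at 1.68 and, so thinned, at -0.021.

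Finer classes showed where the difference lay in A1 and A2. Lama5 was between 4.08 and 6.04 CPM at 0 to 3 Pdgfra UMIs in both sets. It was 11.3 CPM (8.79 to 14.4) at 4 to 7 UMIs and 58.2 CPM (45.5 to 73.4) at 8 or more in A1, and 12.4 and 51.4 CPM in A2. Nid1 in A1 was between 63.4 and 78.4 CPM up to 7 UMIs and 184 CPM (160 to 209) at 8 or more, and Lamb1 between 202 and 227 CPM and then 325 CPM (294 to 359). In A1 and A2, cells with 8 or more Pdgfra UMIs, 88 and 32 of them, thus stood apart from those with 4 to 7. Lama2 in A1 was lower in each class, from 49.5 through 30.3, 27.6 and 20.1 to 11.5 CPM. In B1 and B2, Lama5 was higher from the first UMI on: 12.3 and 15.4 CPM at 0, 28.7 and 30.7 CPM at 1, and 81.1 and 79.6 CPM at 2 to 3.

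**Figure D4:**
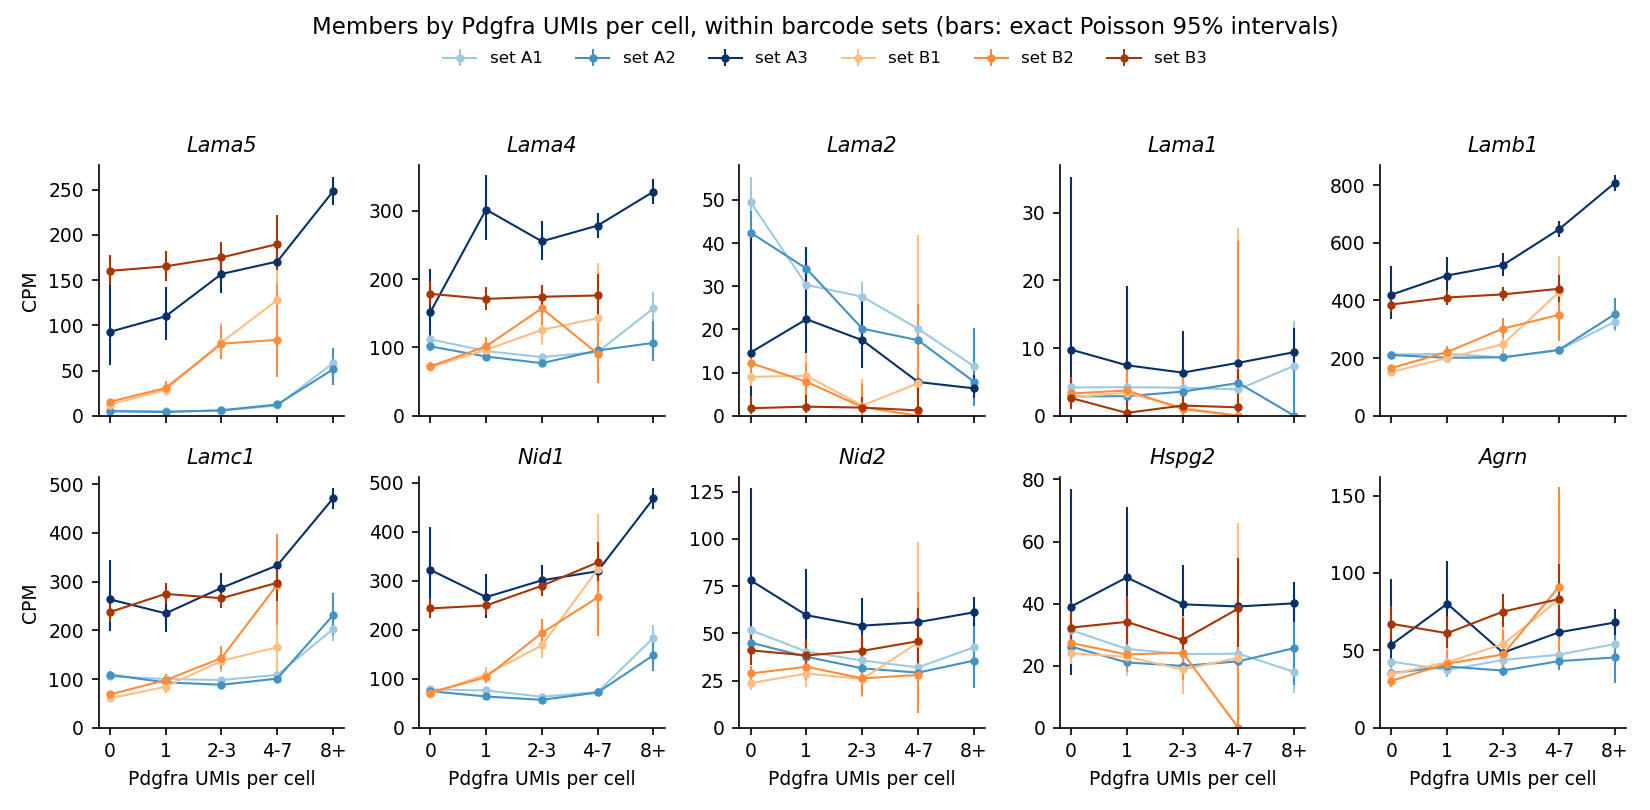
Level of each gene in CPM (one linear axis per gene) in cells grouped by Pdgfra UMIs per cell; lines are the 6 barcode sets, bars are exact Poisson 95% intervals, and classes of fewer than 20 cells are left out. In set A1 Lama5 stays near 5 CPM up to 3 UMIs and is 58.2 CPM at 8 or more, whereas Lama2 goes from 49.5 to 11.5 CPM.

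Clusters, made separately in each ending without the members and the other basement membrane genes, showed which cells held the chains. They are called by their leading genes. In ending A, 3 clusters had the highest Pdgfra of those with at least 50 cells, and 89.6% to 94.5% of their cells were of set A3. The Il1rl1/Npnt cluster (487 cells, 1151 CPM Pdgfra) had 279 CPM Lama5 (261 to 297) and 192 CPM Lama4 (177 to 208), so that Lama5 made up 56.1% of alpha chain UMIs (53.7 to 58.6). The Opcml/Cd38 cluster (434 cells, 1313 CPM Pdgfra) had 267 CPM Lama5 (248 to 286) and 499 CPM Lama4 (474 to 526), with Lama5 at 34.5% (32.5 to 36.5). The Aplnr/Bmp3 cluster (203 cells, 591 CPM Pdgfra) had 101 CPM Lama5 (88.2 to 116) and 308 CPM Lama4 (285 to 333), with Lama5 at 24.5% (21.7 to 27.5). The first 2 clusters thus had like Lama5 levels, and Lama4 differed between them. Nid1 was 567 CPM in the first, 468 CPM in the second and 183 CPM in the third of these.

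The 3 clusters also had 7, 6 and 5 of the 9 epithelial markers at 2-fold or more over other cells of the ending, none of them among their 10 leading genes, and all 5 enterocyte genes. The part of that RNA in the levels above was not tested beyond the removal of cells given earlier.

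In ending B the clusters of at least 50 cells with most Pdgfra were led by Npnt/AW112010 (896 cells), Elovl7/Ramp1 (1178 cells) and Gadd45a/Ajap1 (810 cells). Lama5 was 188 CPM (173 to 204), 175 CPM (163 to 188) and 118 CPM (106 to 130) in them. Lama4 ran the other way, at 72.9 CPM (63.5 to 83.1), 154 CPM (143 to 167) and 311 CPM (292 to 331). Lama5 therefore made up 71.4% (68.1 to 74.5), 53.0% (50.3 to 55.6) and 27.4% (25.1 to 29.9) of alpha chain UMIs. Nid1 followed Lama5, at 366, 269 and 161 CPM. Among clusters of at least 50 cells, Slco2a1 and Npnt were leading genes of the cluster with the highest share of Lama5 in each ending, and Gadd45a was among the leading genes of the cluster with the lowest share of the 3 in each ending.

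Lama2 was highest in clusters with low Pdgfra. In ending A the Dpt/Aspn cluster (328 cells) had 118 CPM (106 to 131), which was 48.5% of its alpha chain UMIs, and the Cdkn2c/Col6a5 cluster (165 cells) had 104 CPM (90.4 to 119). In ending B the Ogn/Cxcl13 cluster (1311 cells) was highest, at 17.8 CPM (14.4 to 21.8), or 28.0% of alpha chain UMIs. The Gadd45a/Ajap1 cluster held 0 Lama2 UMIs, which allows up to 0.942 CPM (3 counts). The Dpt/Aspn cluster also had the lowest Agrn of the clusters of ending A, 18.2 CPM (13.6 to 24.0), and 60.4 CPM of Hspg2 (51.7 to 70.3). The proteoglycans thus separated in those cells. Nid2 was highest in the Igfbp3/P2rx1 cluster of 53 cells, at 204 CPM (163 to 253).

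**Figure D5:**
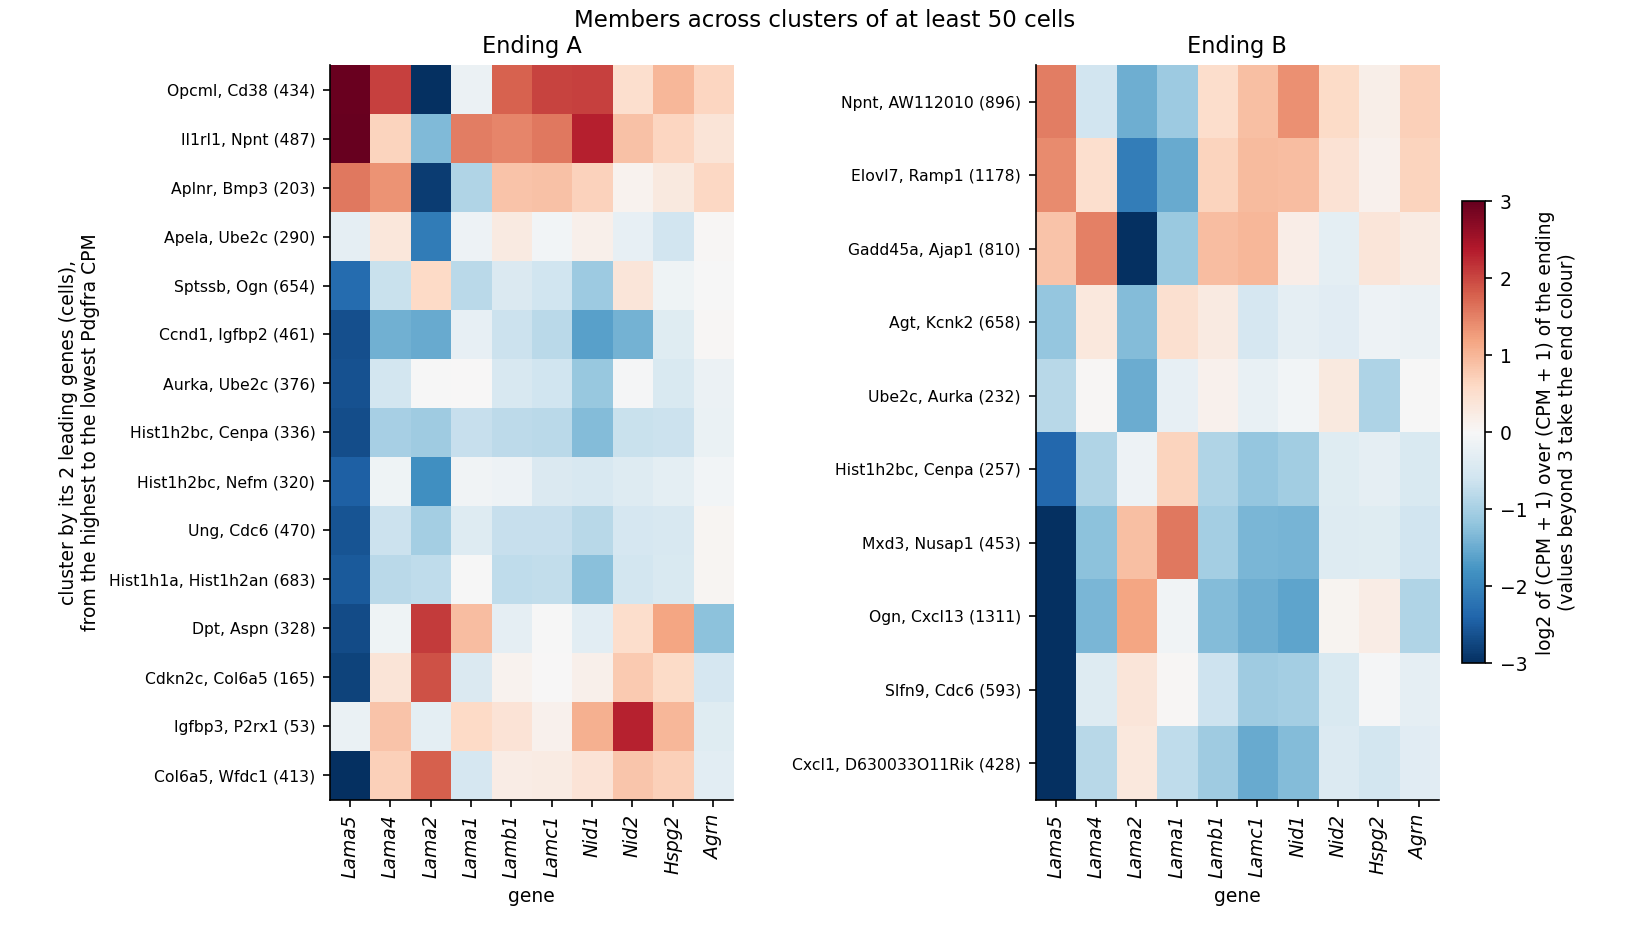
Level of the 10 genes in clusters of at least 50 cells, as log2 of (CPM + 1) over that of the whole ending; red is higher and blue lower, colours end at 3 either way, and rows run from the highest to the lowest Pdgfra. The top 3 rows of each ending are the highest for Lama5 (101 to 279 CPM in ending A and 118 to 188 CPM in ending B), and Lama2 is highest in rows further down.

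Over the 25 clusters of both endings, members with like profiles were found by Pearson's r of log2 (CPM + 1), as a description, after each gene's mean over the clusters of an ending was subtracted. Lamb1 and Lamc1, which pair in trimers, had r = 0.97, Lamb1 and Nid1 0.94, and Lama5 and Lamc1 0.93. Lama2 had r = -0.73 with Lama5 and -0.82 with Agrn. Of 8880 other genes, those most like Lama5 were Glp2r (0.97), Adamts18 (0.97) and the collagen IV chain gene Col4a5 (0.96). Those most like Nid1 included Cachd1 and Pde8b (0.96 each), and those most like Lama2 were Srpx, Col16a1 and Fzd1 (0.95 each). Genes most like Lama4 included Hgf (0.92), and Lama1, at low counts, had no gene above 0.69. Clusters share libraries and depth, and many of these genes helped to form them.

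Within the 4 clusters of ending B that held at least 50 cells of both sides, an analysis chosen after the data were seen, the ratio of Lama5 between B3 and the other sets was below the 2.81 of all cells. Lama5 was 194 against 123 CPM in the Elovl7/Ramp1 cluster, a log2 ratio of 0.66 (0.39 to 0.94). It was 0.75 (0.43 to 1.10) in the Npnt/AW112010 cluster and 0.56 (0.25 to 0.88) in the Gadd45a/Ajap1 cluster. Lamc1 was at 0.66, 0.43 and 0.52 in these clusters, and Nid1 at 0.38, 0.00 and 0.29. No member of at least 20 CPM was 2-fold higher in these 3, where 1.49%, 2.66% and 2.15% of all genes were, against 5 over all cells of the ending. In the Agt/Kcnk2 cluster, with 57 cells of B3 against 601, Lama5 was at -0.07 (-1.57 to 1.12), Lamc1 at 0.89 (0.33 to 1.42) and Agrn at -0.61 (-2.09 to 0.57). Hspg2 was 2-fold higher there, at 45.4 against 21.8 CPM or 1.06 (-0.09 to 2.05), where 10.3% of all genes were. In the Apela/Ube2c cluster of ending A, which leads with genes of dividing cells, Lama5 was 69.7 CPM in 87 cells of A3 and 13.4 CPM in 203 cells of A1 and A2, a ratio of 2.38 (1.84 to 2.93).

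Other basement membrane genes followed the members in part. Of 13 other components of at least 20 CPM in ending A, 9 were higher in A3, led by Npnt (nephronectin, an integrin ligand, 5.20), Col4a6 (5.18) and Col4a5 (4.84), and 1, Fbln1 (-1.41), was lower, with a median of 1.53. In ending B, 7 of 13 were higher, led by Col4a6 (3.01), Npnt (2.92) and Col4a5 (2.49), and Fbln1 (-1.69) and Sparc (-1.27) were lower, with a median of 1.21. Of 9 receptors in each ending, 4 were higher, Itga2 (3.79 and 2.21), Lrp4 (the agrin receptor, 2.44 and 1.81), Itga1 and Sdc4, with none lower. Of the enzymes that build and trim heparan sulfate, 1 of 8 in ending A (Hs6st1, 1.28) and 1 of 6 in ending B (Sulf2, 1.19) were higher. Over all genes 9.63% were higher in ending A and 8.58% in ending B. Lamb2 was the only other laminin chain to reach 20 CPM, in ending B (11.6, 12.5 and 24.3 CPM in B1 to B3). Lama3, the chain of laminin-332, had 20 UMIs in ending A and 1 in ending B. In cells with 4 or more against 0 Pdgfra UMIs, 3 of 12 other components were higher and 3 lower in A1 and A2. Over all genes 0.843% were higher and 1.39% lower there. In B1 and B2, 7 of 13 were higher and 2 lower, where 11.3% of all genes were higher and 8.27% lower.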

How the data were processed

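The authors deposited 1 matrix of raw UMI counts per gene and cell for all 6 samples, as the whole-number values show. Cell Ranger 2.1.1, Seurat and the build mm10 are named in the submitters' processing notes, without role, and the annotation is not given in the sources used here. The matrix held 100735249 UMIs. Cells with fewer than 1000 detected genes or over 5% mitochondrial UMIs were left out (439 cells), as were 70 doublets called by Scrublet (scanpy 1.11.5, expected rate 5%). Scrublet called 0.144% to 0.954% of cells in the 6 sets, far under the expected rate, and under 0.5% over ending A, where it was not taken to have worked, so doublets may remain in both endings. UMIs were summed over cells of a set and divided by the summed total (CPM). Poisson, Clopper-Pearson and conditional binomial intervals were exact (scipy 1.17.1). The arithmetic of ratios and intervals was checked on simulated counts with known folds. Cells were clustered within each ending with leidenalg 0.10.2 at resolution 1, on 2000 variable genes and 30 principal components. All 10 members were named. Of the other lists, genes of at least 20 CPM were counted, with up to 3 named at either end beside short counts. Members and lists were chosen with earlier results of these data known. Alternatives covered cell and doublet filters, scaling, thinning, Pdgfra thresholds, other lineages, dividing cells and clustering resolution. No sample maps to a suffix, so no comparison of ages or sorts was made.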

Additional observations from a re-analysis of the deposited data

Results flagged for a closer look

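Lama1 moved in opposite directions in the 2 endings. The log2 ratio of the third set over the other 2 was 1.13 (0.73 to 1.51) in ending A, where set A3 held 77 UMIs, and -0.99 (-2.02 to -0.09) in ending B, where set B3 held 12 UMIs. Both intervals leave out 0 for counting error alone. The difference between endings was not tested, since sets are not replicates and the endings rest on different gene lists.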

How the results depend on the processing

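The 5 members that were higher in the third set were so in both endings, but within the Elovl7/Ramp1, Npnt/AW112010 and Gadd45a/Ajap1 clusters of ending B (chosen after the data were seen) the count was 0, where 1.49% to 2.66% of all genes were higher. In the Agt/Kcnk2 cluster it was 1 (Hspg2), where 10.3% of all genes were higher. The ratios of Lama5 and Agrn were below 0 there, at -0.073 (-1.57 to 1.12) and -0.61 (-2.09 to 0.57), but both intervals include 0. The cause was not tested for any value in this paragraph. Values after thinning to 2000 UMIs, here and below, are for 2 or more against 0 Pdgfra UMIs, so they compare other cells. For cells with 4 or more against 0 Pdgfra UMIs, the count of members at least 2-fold higher in A1 was 0. It was 1 without dividing cells, without cells of other lineages, without the 5% of cells with most UMIs and at 6 or more Pdgfra UMIs, and 2 after thinning. In A2 it was 0, and then 1 without dividing cells and at 6 or more, and 3 after thinning. In A3 it was 2, and then 1 with no cell filter, without dividing cells and with a mean of per-cell CPM, and 0 after thinning. In B2 it was 5, and then 3 at 3 or more, at 6 or more and after thinning. The share of all genes was not computed under these alternatives, so the counts that they gave have no background. The share of Lama5 in alpha chain UMIs at 4 or more Pdgfra UMIs in ending A was 31.6%. It became 28.4% at 3 or more, 36.6% at 6 or more, 42.6% after thinning, 21.7% with sets weighted equally, 12.8% without the third set and 27.3% without cells of other lineages. At 0 Pdgfra UMIs in ending A it was 4.06%, 10.6% after thinning and 13.7% with sets weighted equally. In ending B it was 51.5% at 4 or more and 57.3% at 6 or more. At 0 it was 25.5%, 31.6% after thinning and 14.0% without the third set. Thinning changed the sign of 2 ratios: Nid2 in A1 from -0.61 to 0.23 and Agrn in B2 from 1.68 to -0.021. The thinned values are given without intervals, and that of Agrn is near 0. Scaling by the median ratio moved ending B by 0.12. Of the other values, 628 for single genes and 98 main ones stayed within their counting interval or near their count, and 123 for single genes left it. The alternative of newer symbols alone was not run, since no member had an older symbol. No paired analysis was possible because no label ties a suffix to a sample or a replicate. Depth limits Lama1, and Lama2 in ending B.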
